A study of Trachemys scripta with 24 samples.

Results

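The mir-30 family was examined in the plasma of female pond sliders (Trachemys scripta) before and after surgical removal of the ovaries. Its members were all entries of the deposited table with the prefix cpi, for the painted turtle Chrysemys picta, and the family number 30, with both arms and every letter or copy. This gave 12 entries, the 2 arms of mir-30a, mir-30b, mir-30c-1, mir-30c-2, mir-30d and mir-30e, out of 528 cpi entries and 1994 entries in all. Small RNA was sequenced from 8 females at 3 time points. T0 was 24 h ahead of surgery, T1 followed it by 2.5 h and T2 by 36 h, and each was represented by 8 libraries. T1 and T2 followed endoscope-assisted oophorectomy under dexmedetomidine, ketamine, midazolam and alfaxalone, with reversal by atipamezole and flumazenil. All animals were hospitalized and fasted before surgery, and the paper reports that all had resumed feeding before T2. No group of turtles was anesthetized without surgery, so surgery, anesthesia, feeding and elapsed time cannot be told apart. Libraries carry a name such as t31 but not the turtle, so they were not paired.

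MiR-30 is one of the larger microRNA families of vertebrates. The mature products that define it share the seed, the bases near the start of the molecule that choose the target mRNAs. The entries examined here take in both arms, and their sequences were not examined. They and their summed share are therefore not read as a single seed family. In mammals the family is known to restrain CTGF, a matrix-promoting growth factor, in the heart, Beclin-1 in autophagy, and genes of the epithelial to mesenchymal transition, and it is needed for healthy kidney podocytes. In the human genome the hairpins stand in pairs, miR-30d beside miR-30b, miR-30a with miR-30c-2, and miR-30e with miR-30c-1. Most cell types make miR-30, so its presence in plasma marks no single tissue, and the number of cells that release it cannot be told apart from the amount each releases.

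The table gave raw read counts for each mature miRNA. Counted once per entry, the cpi entries held between 5837 and 515184 counts in a library, with medians of 128366 (T0), 125343 (T1) and 106218 (T2). The lowest total was that of T2 replicate t39, which had only 88 counts on the family. MiRNAs of cells that plasma can hold RNA from were present at every time point. Median shares of the cpi counts at T0, T1 and T2 were 2.82%, 2.07% and 2.17% for the red cell list (mir-451 and mir-144), and 4.21%, 7.79% and 4.27% for the liver list (mir-122, mir-192 and mir-194). The muscle list (mir-1, mir-133, mir-206 and mir-499) had 0.756%, 0.651% and 0.872%, and the epithelial list (mir-200, mir-203 and mir-205) 0.267%, 0.237% and 0.236%.

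The arm names need a caution before any level is read. In mammals the 5p arm is the main product of miR-451, miR-122 and miR-21, and the 3p arm that of miR-101, miR-126 and miR-148a. In the deposited table the label was the opposite for 6 of these 6 hairpins, a set chosen after the values were seen, with between 94.7% and 99.997% of the counts of the hairpin on the other label. For cpi-mir-451 the table held 128798 counts labelled 3p and 63 labelled 5p, and for cpi-mir-126 it held 457 labelled 3p and 19227 labelled 5p. None of the mir-30 entries carried the table's miRBase mark, which stands on 66 entries. Arms are therefore given below as labelled in the table, and a label is not to be read as a position in the hairpin.

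Before surgery the family was carried by 2 of its paralogs, mir-30d and mir-30c. Levels are given as CPM, counts scaled to a common library total over the 690 entries kept by the filter on low counts and scaled between libraries by the TMM method. Each read can be counted under several species, so CPM values are lower than a share of reads would be. The mature products of a family are of nearly the same length, so levels were compared between members without a length correction, though the ease of ligation in library preparation can differ between them.

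The 3p-labelled entry of mir-30d stood at the top of the family in every library. At T0 it ranged from 2542 to 3884 CPM with a median of 3298, and its mean was 3243 ± 470 CPM (SD, n = 8). Its share of the family's counts was 70.8% ± 5.96 before surgery, 69.4% ± 11.6 at T1 and 67.9% ± 9.42 at T2. The lowest share of mir-30d with both arms was 48.9%, in T1 replicate t53, and the highest 82.2%, in T1 replicate t47. The 2 copies of mir-30c came next. At T0 cpi-mir-30c-2-3p lay between 172 and 820 CPM with a median of 539, and cpi-mir-30c-1-3p between 228 and 797 with a median of 518. cpi-mir-30d-3p was above cpi-mir-30c-2-3p in 24 of 24 libraries, by a mean of 2.77 ± 0.58 on the log2 scale at T0 (SD, n = 8). That step is against 1 copy of mir-30c. With both arms, both copies together took a median of 21.4% of the family's counts at T0, and mir-30d 70.9%.

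**Figure D1:**
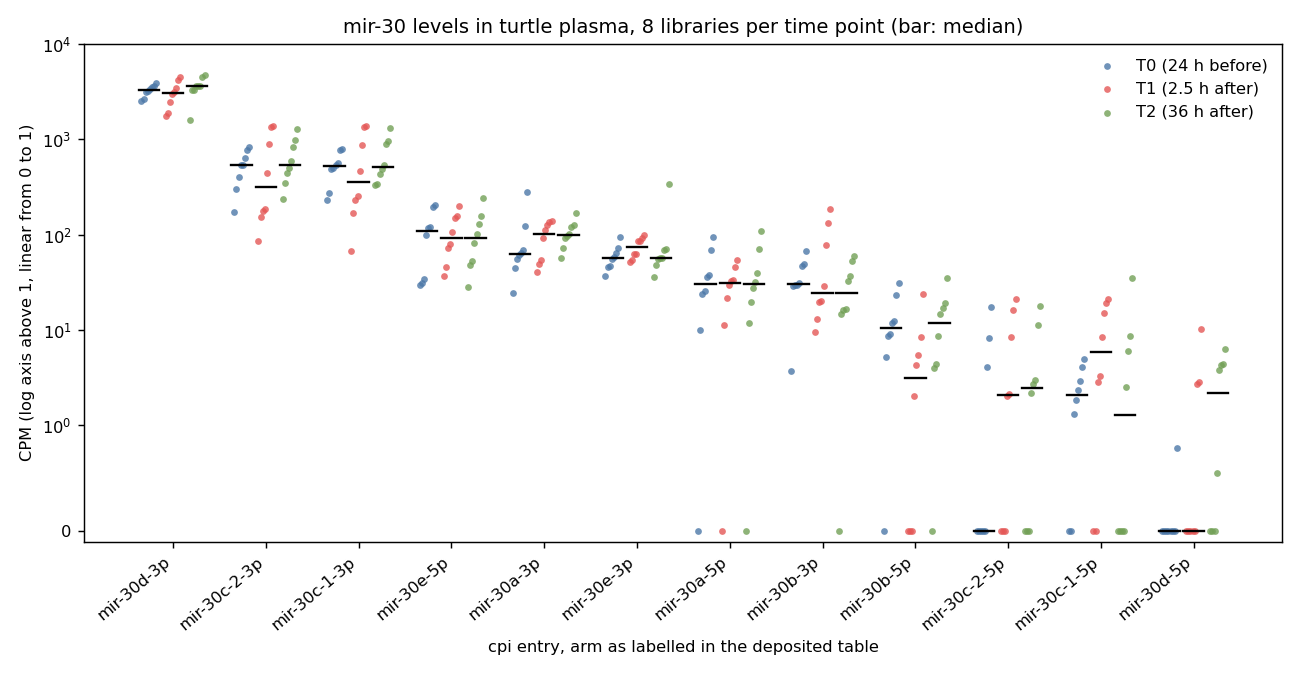
CPM of the 12 cpi mir-30 entries (arms as labelled) in each library of T0, T1 and T2, on an axis that is logarithmic above 1 and linear below, with the median of 8 libraries as a bar. The 3p-labelled entries of mir-30d and the mir-30c copies lie above the other members, and the libraries of the 3 time points overlap for every entry.

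The remaining entries formed a lower group whose order depended on the library. cpi-mir-30e-5p had 103 ± 70.0 CPM at T0, cpi-mir-30a-3p 90.04 ± 80.6, cpi-mir-30e-3p 59.1 ± 17.7, cpi-mir-30a-5p 36.98 ± 31.1 and cpi-mir-30b-3p 35.8 ± 18.9 (SD, n = 8 each). The step from cpi-mir-30c-1-3p down to cpi-mir-30e-5p held in 8 of 8 libraries at T0, 7 of 8 at T1 and 8 of 8 at T2. Below it, neighbours in this order did not differ beyond their spread at T0. cpi-mir-30e-5p was above cpi-mir-30a-3p in 4 of 8 T0 libraries, cpi-mir-30a-3p above cpi-mir-30e-3p in 4 of 8, cpi-mir-30e-3p above cpi-mir-30a-5p in 6 of 8, and cpi-mir-30a-5p above cpi-mir-30b-3p in 3 of 8. T0 replicate t49 had the highest cpi-mir-30a-3p level of all libraries, 277 CPM, and T0 replicate t52 the lowest, 24.6 CPM. In T0 replicate t49 the muscle list took 8.73% of the cpi counts, the highest at T0, and its part in the level of mir-30a was not tested.

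Another 4 entries were removed by the low-count filter and were not tested. Over all 24 libraries cpi-mir-30b-5p had 137 counts, cpi-mir-30c-2-5p 68, cpi-mir-30c-1-5p 61 and cpi-mir-30d-5p 22. They were at 0 in 5, 11, 8 and 15 of the 24 libraries.

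**Figure D2:**
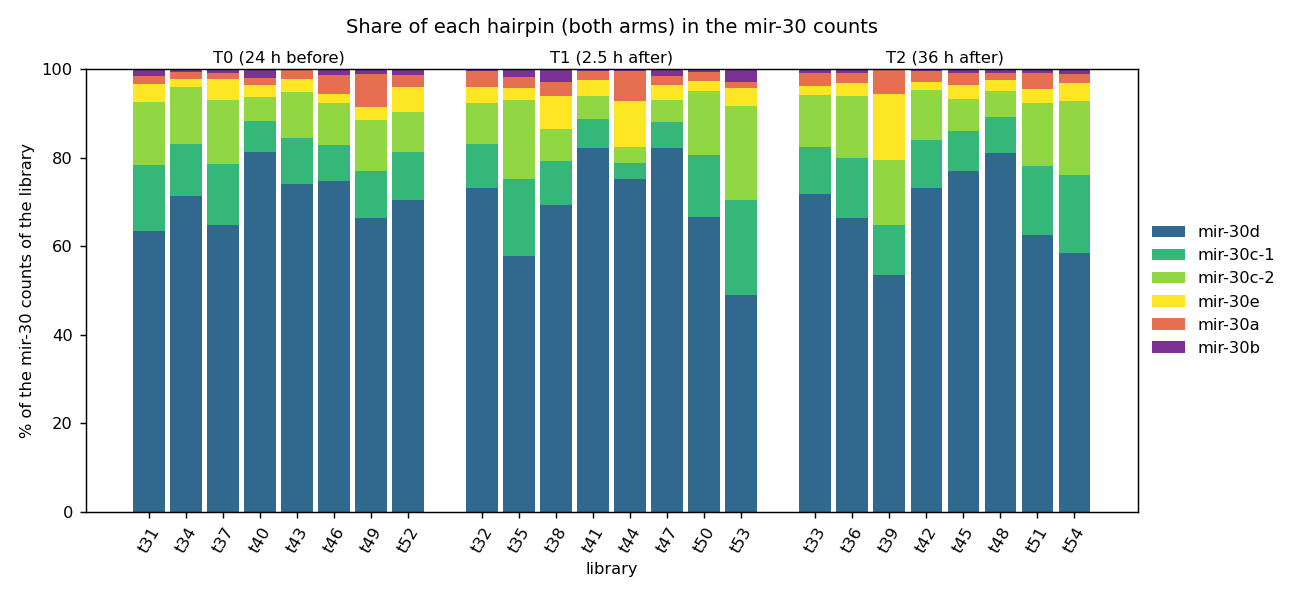
Share of each hairpin, with both arms, in the mir-30 counts of each library, as stacked bars that sum to 100%, with libraries grouped by time point. mir-30d takes between 48.9% and 82.2%, and the 2 mir-30c copies together between 7.35% (T1 replicate t44) and 42.8% (T1 replicate t53).

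The balance between mir-30d and mir-30c varied more between libraries than between time points. Both mir-30c copies together took a median of 21.4% of the family before surgery, 18.2% at T1 and 24.3% at T2. Within T0 the range was 12.4% to 29.2%, within T1 7.35% to 42.8%, and within T2 14.1% to 34.4%. At T1 the values therefore lay on both sides of the T0 range. T1 replicates t53 and t35 had the highest mir-30c levels of their time point, with 1351 to 1376 CPM on cpi-mir-30c-1-3p, while T1 replicate t44 had 67.2 CPM. mir-30e took 14.8% of the family in T2 replicate t39, where this rests on 13 counts.

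The 3p-labelled counts of mir-30c were divided evenly between its copies. cpi-mir-30c-1-3p held 9409 counts and cpi-mir-30c-2-3p 9307 over all libraries, so that the first took 50.3% (95% exact Clopper-Pearson interval 49.55 to 50.99). Pooled over libraries, it covers counting error only and leaves out the spread between libraries. No molecular identifiers are described, so copied reads could not be told from separate molecules. Computed for each library, the interval held 50% in 22 of 24. The exceptions were T2 replicate t45 with 54.9% and T2 replicate t48 with 58.4%. In humans the 2 mir-30c hairpins give the same 5p product and different 3p products. Across the 4 species prefixes described below, counts in a library differed by up to 68 on the first copy and 71 on the second. Their sum differed by at most 16. Spearman's rho between the CPM of the copies was 0.99 over the 24 libraries. Whether the 3p-labelled counts of the copies come from the same reads was not tested. The levels of the copies are therefore not taken as separate measurements. On the 5p-labelled arm, 16 libraries had a count on the first copy and 13 on the second, but only 9 had a count on both.

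The 3p-labelled entries had nearly the same counts under the other species, and whether these come from the same reads was not tested. The summed counts of mir-30d-3p were 48444 under cpi, 48442 under aca (Anolis carolinensis), 48453 under ami (Alligator mississippiensis) and 48364 under oha (Ophiophagus hannah), and no library differed by more than 16 counts between the 4 prefixes. With its copies added, the 3p-labelled mir-30c had 18716, 18679, 18695 and 18705 counts in the same order. Several 5p-labelled entries differed more between prefixes. mir-30b-5p had 137 counts under cpi and 31 under oha, and for mir-30d-5p the highest count of the 4 prefixes was 6.31 times the lowest. mir-30e-5p had 1526 under cpi and 1983 under oha, a ratio of 1.31. The cpi values were used throughout.

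Arm use set the members apart. Both copies of mir-30c and mir-30d kept nearly all of their counts on the 3p label. It took 99.95% of mir-30d (48444 of 48466 counts), 99.4% of mir-30c-1 and 99.3% of mir-30c-2, and it had the larger count in 24 of 24 libraries for each of these hairpins. mir-30a and mir-30b were less one-sided. Their 3p label took 67.1% (95% exact interval 64.8 to 69.3) and 82.8% (80.0 to 85.4) of pooled counts, with intervals that cover counting error only, and it had the larger count in 21 and 18 of 24 libraries. mir-30e went the other way, with 36.0% on the 3p label (34.11 to 38.01), and 15 of 24 libraries had more on the 5p label. Of the mir-30 hairpins, with both mir-30c copies counted, 5 of 6 had more pooled counts on the 3p label. Beside them stood 90 of the 166 cpi hairpins tested for arm ratios (54.2%), and the difference was not tested. The spread between libraries was wide where counts were low. For mir-30a the 3p share ran from 20.7% in T0 replicate t52 to 100% in libraries with no 5p count, with a median of 78.7%. For mir-30e it ran from 18.7% to 76.9% with a median of 45.1%, above the interval of the pooled share.

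**Figure D3:**
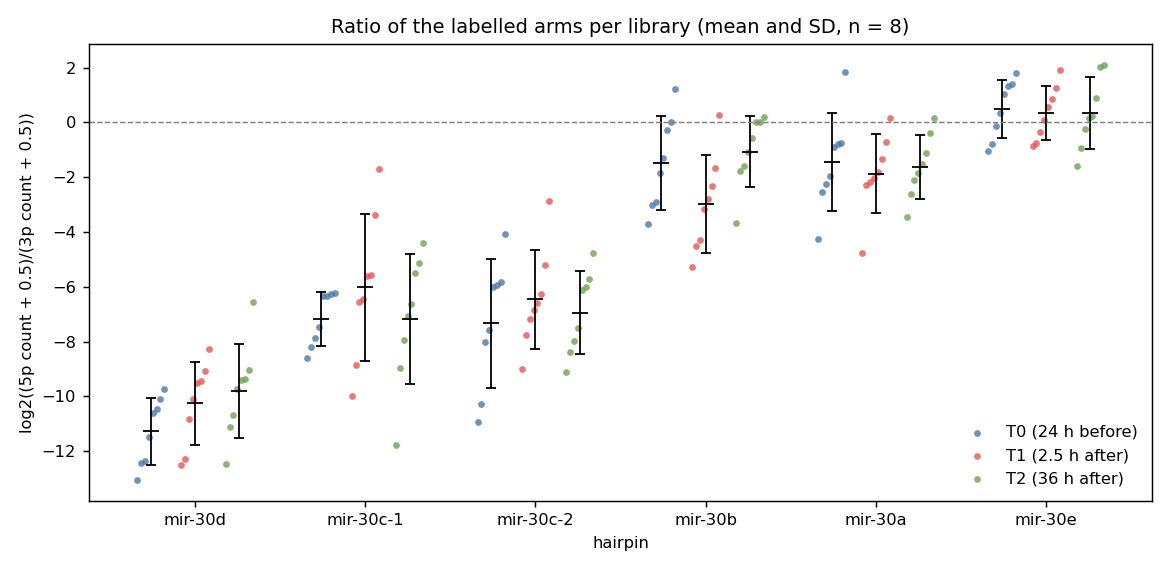
Ratio of the labelled arms of each mir-30 hairpin per library, as log2((5p count + 0.5)/(3p count + 0.5)), with the mean and SD of 8 libraries per time point. mir-30d and the mir-30c copies lie below 0 in every library, while mir-30a and mir-30b lie mostly below 0 and mir-30e on both sides. The highest values are -2.87 for mir-30c-2 and -1.69 for mir-30c-1 (T1 replicate t44, 14 against 4 counts). For mir-30d the highest is -6.57 (T2 replicate t39, 47 against 0 counts), a value set by depth and the 0.5 added per arm.

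The hairpins that are neighbours in the human genome differed widely in their plasma levels. cpi-mir-30d-3p had 73.3 times the counts of cpi-mir-30b-3p, and Spearman's rho between their CPM was 0.30 over the 24 libraries. cpi-mir-30b-3p had only 661 counts in all, with 2 in T1 replicate t44 and 0 in T2 replicate t39, so counting error weighs on that rho. For the other neighbours the value depended on the labelled arm. The mir-30c copies are not taken as separate measurements, so the values do not tell which copy goes with which neighbour. cpi-mir-30c-2-3p had 7.89 times the counts of cpi-mir-30a-3p, with a rho of 0.15, and 16.1 times those of cpi-mir-30a-5p, with a rho of 0.51. cpi-mir-30c-1-3p had 6.17 times the counts of cpi-mir-30e-5p, with a rho of 0.51, and 10.9 times those of cpi-mir-30e-3p, with a rho of -0.21. cpi-mir-30d-3p and cpi-mir-30c-1-3p, which are not neighbours in humans, had a rho of 0.76. Those entries had 48444 and 9409 counts, more than the lower entry of any other pair named, so the rho values are not compared. In each pair both entries share the depth and composition of each library. Several libraries come from the same turtle, and these values were not tested.

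The comparison of T1 with T0 asked which miRNAs differ in plasma 2.5 h after surgery. No mir-30 entry was called. Calls required an adjusted p no larger than 0.1 by edgeR's quasi-likelihood test and a log2 fold change of 1 or more in either direction, with Benjamini-Hochberg adjustment over all 690 entries tested. Of the 8 members tested, 0 passed, against 4 of 690 entries, or 0.58%. Those 690 can count the same reads under several species. Among the 198 cpi entries tested, 1 was called. At an unadjusted p of at most 0.05 with the same fold change limit, 0 of 8 passed, against 4.2% of all entries. DESeq2 also called 0 of them at the adjusted limits.

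cpi-mir-30d-3p ranged from 1766 to 4511 CPM at T1 with a median of 3039, against 2542 to 3884 with a median of 3298 at T0. The T1 range reached past that of T0 on both sides, and 5 of 8 T1 libraries lay below the T0 median. The log2 fold change was -0.09 (standard error, SE, 0.22, edgeR adjusted p = 0.947). The mir-30c copies had log2 fold changes of 0.20 (SE 0.47) and 0.16 (SE 0.49), although their medians were lower at T1, with 359 CPM against 518 for the first copy and 312 against 539 for the second. T1 replicates t35 and t53 had the highest values of both copies at T1. cpi-mir-30b-3p had the largest difference of the members at T1, 0.76 (SE 0.59, edgeR adjusted p = 0.756), which was 0.17 without T1 replicate t53. It ranged from 9.60 to 184 CPM at T1 and from 3.66 to 67.5 at T0. Again the highest T1 libraries were t53 with 184 CPM and t35 with 133.5, and the median was lower at T1, 24.4 CPM against 30.3. For cpi-mir-30a-3p the log2 fold change was 0.06 with all libraries, and 0.50 without T0 replicate t49.

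The direction of the members at T1 turned on single libraries. Over all 690 entries tested, 397 log2 fold changes were above 0, with a median of 0.08. Those of the members, with the mir-30c copies counted as 2, were above 0 for 6 of the 8 tested, with a median of 0.11. Without T1 replicate t35 they were above 0 for 2 of 8 with a median of -0.10, and without T1 replicate t53 for 3 of 8 with a median of -0.15. Without T0 replicate t40, or with no filter on low counts, they were above 0 for 4 of 8.

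The comparison of T2 with T0 asked what differed 36 h after surgery. Among the 8 members, 0 were called by edgeR or by DESeq2, and 0 at the unadjusted p. Over all entries edgeR called 0%, and 5.07% passed at the unadjusted p. cpi-mir-30d-3p ranged from 1587 to 4682 CPM at T2 with a median of 3627, and 5 of 8 libraries lay above the T0 median. The lowest value was that of T2 replicate t39, and the other T2 libraries began at 3258 CPM. The log2 fold change was 0.12 (SE 0.22, edgeR adjusted p = 0.916), and 0.24 without T2 replicate t39. For the mir-30c copies the log2 fold changes were 0.35 (SE 0.47) and 0.32 (SE 0.50), with 4 of 8 libraries above the T0 median for each. cpi-mir-30a-3p had a median of 99.0 CPM at T2 against 62.8 at T0 and was above the T0 median in 7 of 8 libraries, with all T2 values inside the T0 range and a log2 fold change of 0.18 (SE 0.41), which was 0.60 without T0 replicate t49. cpi-mir-30e-3p had a log2 fold change of 0.39 (SE 1.06, edgeR adjusted p = 0.956), which was -0.08 without T2 replicate t39. This SE was derived from a p that edgeR raised. For the same entry the SE was 0.37 for T1 against T0 and 0.38 for T2 against T1. Among the members, 7 of 8 had values above 0 with a median of 0.19, beside 335 of 690 entries with a median of -0.03. The mir-30c copies count as 2 of these 8 members. Over the alternatives tried, between 5 and 7 of the 8 members were above 0.

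**Figure D4:**
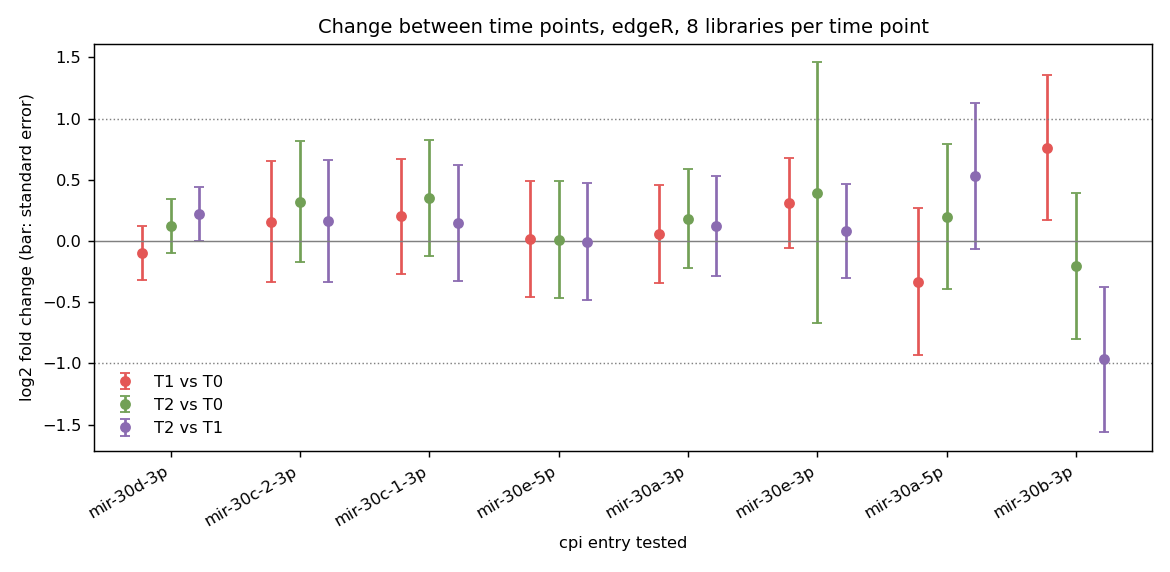
Log2 fold change between time points of the 8 cpi mir-30 entries tested, by edgeR with 8 libraries per time point, with the standard error as a bar and dotted lines at the limit of 1 in each direction. All points lie inside the limits, the closest being cpi-mir-30b-3p for T2 against T1 at -0.97. The bar of cpi-mir-30e-3p for T2 against T0 was derived from a p that edgeR raised.

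Between T1 and T2 the mir-30 entries again gave 0 calls by edgeR and by DESeq2, and 0 at the unadjusted p. Over all entries edgeR called 0%, with 3.62% at the unadjusted p. The member with the largest difference was cpi-mir-30b-3p, with 60.7 ± 65.4 CPM at T1 and 28.6 ± 20.5 at T2 (SD, n = 8), a log2 fold change of -0.97 (SE 0.60, edgeR adjusted p = 0.883). The medians were alike, 24.4 CPM at each time point, and T2 replicate t39 had 0 counts. The difference was -0.39 without T1 replicate t53. cpi-mir-30d-3p differed by 0.22 (SE 0.22). Log2 fold changes were above 0 for 6 of 8 members with a median of 0.13, beside 263 of 690 entries with a median of -0.11. Without T2 replicate t54 they were above 0 for 4 of 8 with a median of -0.05.

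Whether the use of the arms changed was asked separately, since the ratio of the arms of one hairpin needs no scaling between libraries when both arms have counts. Where the 5p label has no count, the ratio is set by the 3p count and the amount added per arm, so it follows depth. That held in 15 of 24 libraries for mir-30d, 8 for mir-30c-1, 11 for mir-30c-2, 5 for mir-30b and 3 for mir-30a. For mir-30d it gave -13.05 in T0 replicate t43 (4246 counts) and -6.57 in T2 replicate t39 (47 counts). In those libraries the ratio cannot separate arm use from depth. Limma was fitted on the log2 ratio over 166 cpi hairpins with at least 10 counts in at least 8 libraries, the 6 mir-30 hairpins among them. With the same limits on adjusted p and on the log2 scale, 0 of 6 were called in each of the 3 comparisons, against 0%, 0% and 0% of all hairpins. The unadjusted limit was a p of at most 0.05 with the same log2 limit. By it, 4.82% of hairpins passed between T0 and T1, 4.82% between T0 and T2 and 3.61% between T1 and T2. Of the mir-30 hairpins, 0, 0 and 1 passed in the same order.

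The hairpin that passed at the unadjusted p was mir-30b, between T1 and T2. Its 3p label took a median of 96.9% of the counts at T1, between 45.2% and 100%, and a median of 68.4% at T2, between 46.4% and 93.2%. At T0 the median was 75.7%. The log2 ratio of the 5p to the 3p label was -2.97 ± 1.78 at T1 and -1.06 ± 1.298 at T2 (SD, n = 8), a difference of 1.91 (SE 0.79, unadjusted p = 0.0233, limma adjusted p = 0.966). The time points overlap, since T1 replicate t47 had 14 counts labelled 3p and 17 labelled 5p. Counts were low, with 29 labelled 5p at T1 and 59 at T2, and T1 replicate t53 held 173 of the 280 counts labelled 3p at T1. At T1, 3 of 8 libraries had no 5p-labelled count and so a 3p share of 100%. These were t38, t41 and t44, with 11, 4 and 2 counts labelled 3p. The T1 median rests in part on them, and their ratios follow depth. In T2 replicate t39 both arms were at 0, so that its ratio comes from the 0.5 added to each arm. With each library left out in turn the difference lay between 1.58 and 2.38. mir-30d had the smallest unadjusted p for T2 against T0, with a difference of 1.48 (SE 0.75, unadjusted p = 0.0595, limma adjusted p = 1), which rests on 1 count labelled 5p at T0 and 13 at T2 and was 1.02 without T2 replicate t39.

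The family's part of plasma miRNA was described without a test, since it sums over its members. Its mean share of the cpi counts was 1.88% ± 0.345 before surgery, 1.73% ± 0.898 at T1 and 2.05% ± 0.473 at T2 (SD, n = 8). T0 libraries ranged from 1.27% to 2.18%, T1 libraries from 0.963% to 3.20% and T2 libraries from 1.51% to 2.92%, and the medians were 2.01%, 1.32% and 1.92%. T1 replicates t53 and t35 stood above all T0 libraries with 3.20% and 3.11%, while the other T1 libraries had 1.63% or less. Among 154 cpi families ranked by their share, mir-30 stood between place 9 and 12 in the T0 libraries, 6 and 16 at T1, and 8 and 14 at T2.

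The white cell list (mir-223, mir-142 and mir-150) moved with the family's share, and mir-150 had no cpi entry. Its cpi entries, 6 entries of mir-223, which neutrophils and other myeloid cells make, and of mir-142, which blood cells in general make, took medians of 1.46%, 0.907% and 1.48% of the cpi counts at T0, T1 and T2. The ranges were 0.578% to 2.10%, 0.507% to 2.68% and 0.788% to 2.66%, and all 6 entries had counts at each time point. Spearman's rho between the 2 shares was 0.88 over the 24 libraries, given as a description, since both shares have the same total below them. T1 replicate t35 had 2.68% on the list and T1 replicate t44 0.739%, beside mir-30 shares of 3.11% and 0.963%. T1 replicate t53 had 1.63% on it and the highest red cell share of all libraries, 9.06%, and T1 replicate t44 the highest muscle share, 11.5%. With the mir-30 share the red cell list had a rho of 0.44, the epithelial list -0.24, the muscle list -0.52 and the liver list -0.54. The liver list took up to 28.7% of the cpi counts, in T1 replicate t32, and its median was higher at T1 than at T0. The part of any of these lists in the mir-30 share was not tested.

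**Figure D5:**
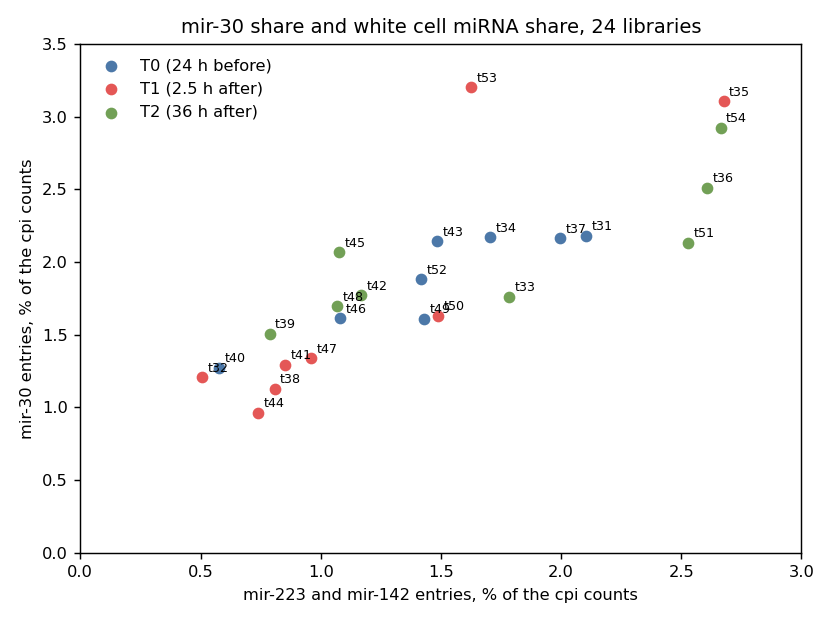
Share of the cpi counts taken by mir-30 entries against the share taken by the mir-223 and mir-142 entries, 1 point per library, coloured by time point. Libraries with more of one have more of the other, and T1 replicate t53 lies above the rest at 3.20%.

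The entries most like the family over the 24 libraries were found among 190 other cpi entries kept by the filter, by Spearman's rho with the summed mir-30 level in CPM. They were cpi-mir-140-5p with a rho of 0.94, cpi-mir-223-5p with 0.92, cpi-let-7g-5p with 0.90, cpi-mir-191-3p with 0.88 and cpi-mir-16c-3p with 0.86. The median over the 190 entries was 0.04 and the lowest value -0.81. cpi-mir-30d-3p made up 67.0% of the pooled mir-30 counts, so these values say little about the lower members. All entries share the composition of each library, several libraries come from the same turtle, and the values were not tested. cpi-mir-223-5p also belongs to the white cell list, so its rho and that of the list are not separate findings. miR-140 is known for its role in cartilage in mammals, miR-223 in myeloid cells, and let-7 in developmental timing. Their mean levels ran from 191.8 CPM for cpi-mir-140-5p to 5495 CPM for cpi-mir-191-3p.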

How the data were processed

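Plasma small RNA of 24 libraries was sequenced, 8 at each time point, and the time point was taken from the labels. The authors discarded reads under a length minimum, clipped adapters with Cutadapt, aligned reads with BWA to saurian precursors of miRBase, and deposited raw counts of reads per mature entry. Every entry was deposited as a pair of identical rows, of which 1 was kept, leaving 1994 entries. The extraction kit differs between the labels and the paper, and it was not settled here.

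From the counts, edgeR 4.0.16 (R 4.3.3) kept 690 entries with filterByExpr, normalized by TMM and fitted all 24 libraries in one quasi-likelihood model, with Benjamini-Hochberg adjustment. Standard errors come from the F statistic, or from p where edgeR raised it. Depth sets the precision. As deposited, with both rows of each entry and all species, a library held 45296 to 4085848 counts. Counted once, the cpi entries alone held 5837 to 515184. Arm ratios were fitted by limma 3.58.1 with 0.5 added per arm. DESeq2 1.42.0 gave an alternative, and pandas 2.3.3, scipy 1.17.1 and numpy 2.4.6 (Python 3.11.15) the descriptive values. The fits were also run on simulated counts with known changes. The simulated entries had changes larger than any of the members and the same dispersion for every entry. They therefore do not show how well changes as small as those of the members are found. The simulated arm ratios had no spread between libraries beyond counting error, unlike the data. The labels do not name the turtle, so repeated samples of a turtle were treated as independent and p-values measure the spread between libraries.

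The text names every cpi mir-30 entry and the 5 other cpi entries most like their sum. The members and lists were chosen with earlier results of these data known. Alternatives were DESeq2, RLE size factors, no filter, both rows, cpi entries alone, counts summed over species, only the time points compared in the fit, unadjusted p, another pseudocount, count minimum or hairpin set for arms, the share over all species, and each library left out in turn.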

Additional observations from a re-analysis of the deposited data

Results flagged for a closer look

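In 3 of 45 groups of 8 libraries, the highest or the lowest library stood apart from its nearest neighbour by more of the group's range than Dixon's limit allows, where chance gives about 1 in 20. At T0, cpi-mir-30a-3p had 277 CPM in replicate t49, and the next library 124. At T2, cpi-mir-30d-3p had 1587 CPM in replicate t39 as the lowest value, and the next 3258. In the same library cpi-mir-30e-3p had 338 CPM as the highest value, from 10 counts, and the next library 70.3.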

How the results depend on the processing

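No mir-30 entry or hairpin gained a call at the adjusted limits under any alternative. At the unadjusted p, 1 arm ratio passed (mir-30b, T2 against T1). Of the alternative values, 57 fold changes of entries and 32 arm ratios turned sign, 50 and 30 of them with 1 library left out. The cause was not tested. All values below are on the log2 scale.

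With no filter, cpi-mir-30a-3p was -0.004644 and cpi-mir-30e-5p -0.03722 (T1 against T0), and cpi-mir-30e-5p was -0.05782 (T2 against T0). With only both time points compared in the fit, cpi-mir-30a-3p was -0.006088 (T1 against T0). For T2 against T1, DESeq2 gave -0.02004 for cpi-mir-30e-3p and 0.008017 for cpi-mir-30e-5p, and RLE size factors gave 0.008524 for the latter. With 1 added per arm, the arm ratio of mir-30c-1 was 0.07824 (T2 against T0) and that of mir-30e 0.01043 (T2 against T1).

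With each library left out in turn, T1 against T0 ranged from -0.08873 to 0.5013 for cpi-mir-30a-3p, -0.5267 to 0.01852 for cpi-mir-30a-5p, -0.1459 to 0.3881 for cpi-mir-30c-1-3p, -0.1998 to 0.3396 for cpi-mir-30c-2-3p, -0.2424 to 0.002787 for cpi-mir-30d-3p and -0.2156 to 0.249 for cpi-mir-30e-5p. T2 against T0 ranged from -0.1191 to 0.5488 for cpi-mir-30a-5p, -0.07548 to 0.5937 for cpi-mir-30e-3p and -0.2631 to 0.3129 for cpi-mir-30e-5p. T2 against T1 ranged from -0.1348 to 0.4888 for cpi-mir-30c-1-3p, -0.1218 to 0.5106 for cpi-mir-30c-2-3p, -0.3917 to 0.313 for cpi-mir-30e-3p and -0.3835 to 0.2422 for cpi-mir-30e-5p.

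Arm ratios for T1 against T0 ranged from -0.8194 to 0.05232 (mir-30a) and -0.3864 to 0.02526 (mir-30e). For T2 against T0 they ranged from -0.5676 to 0.3041 (mir-30a), -0.4124 to 0.6414 (mir-30c-1), -0.1281 to 0.8527 (mir-30c-2) and -0.4202 to 0.1068 (mir-30e). For T2 against T1 they ranged from -0.1605 to 0.5439 (mir-30a), -0.8436 to 0.03046 (mir-30c-2), -0.009534 to 0.8353 (mir-30d) and -0.2592 to 0.2678 (mir-30e).

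Leaving out hairpins whose arms had identical counts, an alternative chosen after seeing the data, changed no call. The low counts of the 5p-labelled mir-30b, mir-30c and mir-30d entries limit the depth behind their arm ratios. No paired analysis was possible because the labels do not name the turtle.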
